A study of Homo sapiens with 4 samples.

Results

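The genes for cyclin-dependent kinase (CDK) inhibitors were followed in ovarian cancer stem cells (OCSCs) treated with an estrogen receptor β (ERβ) agonist. They were chosen by gene symbol as 8 of the 23228 genes in the count tables. CDKN1A, CDKN1B and CDKN1C make up the CIP/KIP family, CDKN2A, CDKN2B, CDKN2C and CDKN2D the INK4 family, and CDKN3 stands apart from both. All 8 passed the filter on low counts and were among the 14473 genes tested. By their labels, OCSCs were sorted from the established ovarian cancer line SKOV3 by aldehyde dehydrogenase (ALDH) activity, grown as spheroids, and given vehicle (2 samples) or 5 µM LY500307, an ERβ agonist (2 samples), for 24 h before RNA-sequencing. All 4 samples are labelled with that single line, and no modified allele is given for any of them. No source used here says whether the replicates were separate cultures, so the p-values below measure only the spread between these samples, which may be technical.

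CDK inhibitors are small proteins that hold back the kinases driving the cell cycle. CIP/KIP proteins bind complexes of cyclins with CDK2 and other CDKs, and p21, the product of CDKN1A, is known as the inhibitor through which p53 stops cells after DNA damage. INK4 proteins bind CDK4 and CDK6 and keep cyclin D away from them, so that the retinoblastoma protein (RB) stays bound to E2F factors. CDKN3 encodes a phosphatase that removes an activating phosphate from CDK2, and its own transcript is known to rise in dividing cells.

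The promoters of 3 members are shown because the results turn on them, namely CDKN1A, which met the criteria for a change, CDKN1B, which had the most reads among the others, and CDKN3, which had the lowest fold change. Each is the 250 bases before the RefSeq start of the gene, written 5′ to 3′ on its own strand (GRCh38.p14). The windows are chr6:36678464-36678713 (plus strand), chr12:12717118-12717367 (plus strand) and chr14:54396757-54397006 (plus strand). Capitals mark GC boxes (GGGCGG on either strand, the letters bound by SP1 family factors) in the first and second, and a cell cycle genes homology region (TTTGAA on either strand) in the third.
CDKN1A promoter: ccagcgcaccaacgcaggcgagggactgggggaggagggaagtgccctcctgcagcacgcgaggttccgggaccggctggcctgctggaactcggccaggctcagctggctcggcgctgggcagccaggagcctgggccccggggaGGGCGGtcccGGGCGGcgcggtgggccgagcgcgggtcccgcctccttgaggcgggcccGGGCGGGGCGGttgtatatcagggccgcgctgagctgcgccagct
CDKN1B promoter: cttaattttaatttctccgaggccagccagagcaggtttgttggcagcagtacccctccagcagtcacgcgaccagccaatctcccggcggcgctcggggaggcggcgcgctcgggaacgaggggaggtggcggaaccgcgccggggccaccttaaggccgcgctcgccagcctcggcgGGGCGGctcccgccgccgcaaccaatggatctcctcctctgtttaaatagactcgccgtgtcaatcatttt
CDKN3 promoter: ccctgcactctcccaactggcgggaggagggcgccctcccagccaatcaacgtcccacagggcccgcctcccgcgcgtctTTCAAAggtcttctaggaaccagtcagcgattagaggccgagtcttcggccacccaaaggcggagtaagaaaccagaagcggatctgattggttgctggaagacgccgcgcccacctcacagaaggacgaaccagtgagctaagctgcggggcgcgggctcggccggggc

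The CDKN1A window held 4 GC boxes, which started at −104, −94, −45 and −40 from the gene start, and the last pair overlaps. CDKN1B held 1, at −71, and CDKN3 held none. A high number was not particular to CDKN1A, since 1 of the 3 CDKN2C windows held 5, CDKN2B and CDKN2D held 2 each, and CDKN2C did not meet the criteria. A GC box was present in 42.6% of the 35116 RefSeq windows of this length, so its presence is common. CDKN3 had the TTTGAA letters at −170, which 13.3% of windows held, and no window of another member had them. RefSeq windows were matched for 7 of the 8 members, with CDKN1C unmatched. None of these windows held the estrogen response element letters AGGTCA (12.1% of all windows), the AP-1 site TGANTCA (6.57%), the E2F sites TTTGGCGC or TTTCCCGC (1.93%) or a p53 half-site (5.57%). These matches describe letters in short windows and say nothing of binding in these cells.

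Between 28841701 and 34943882 reads per sample fell on genes. Reads on no gene were 19.9% and 20.5% of all tallied reads in the vehicle samples and 19.0% and 17.3% in the LY500307 samples. The LY500307 replicates stood further apart than the vehicle replicates, with a median absolute log2 difference of 0.183 against 0.0736 over 9853 genes. The label was checked against markers. KRT18 (787, 668, 1030 and 1028 reads, in the order vehicle 1, vehicle 2, LY500307 1, LY500307 2), ERBB2 and EPCAM were read in every sample, whereas PAX8 had 0 reads in every sample and KRT7, KRT19 and WT1 had at most 2. KRT8, the keratin that pairs with KRT18, had 24, 9, 16 and 33 reads, and MUC16 had 6, 1, 6 and 5. SKOV3 is known for lacking CDKN2A expression, yet CDKN2A had between 834 and 1107 reads per sample. The data therefore go against the label for this gene. PAX8, KRT7, KRT19 and WT1 were also on the list of epithelial ovarian cancer line markers, so the marker check did not bear out the label in full. Whether the line is as labelled was not tested, and the samples are described here as labelled. Of the fibroblast markers, 0 of 5 met the criteria, but their summed level was 464 and 475 CPM (counts scaled to the library size after TMM) with vehicle and 546 and 652 CPM with LY500307, mostly from COL1A1 and COL1A2. Leukocyte markers summed to between 0.634 and 0.985 CPM, and the endothelial genes PECAM1, CDH5 and VWF were near 0, whereas KDR, the remaining endothelial gene of the list, had 4503, 3775, 5246 and 4348 reads. The part of the fibroblast markers, the reads on no gene or the uneven replicates in the results below was not tested. In bulk samples, fewer cells of a type and less RNA per cell cannot be told apart.

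To ask whether LY500307 affected CDK inhibitor genes, each was compared between treated and vehicle OCSCs. A gene met the criteria where its log2 fold change lay beyond 0.5 in either direction and its p, before adjustment, was under 0.05 in edgeR's quasi-likelihood test. Of the 8 members, CDKN1A met them as higher with LY500307 and none met them as lower. Over all genes tested, 4.62% met the criteria, 2.76% as higher and 1.86% as lower. No gene had an adjusted p below 0.05 in edgeR (0% of those tested, with 1678 genes at an unadjusted p below 0.05), whereas DESeq2 gave 16 such genes, or 0.0961% of the 16647 it adjusted. Among the members, both LY500307 samples lay above both vehicle samples for CDKN1A alone, a pattern seen in 24.2% of all genes, and below them for CDKN1B, CDKN2B and CDKN3, a pattern seen in 24.4%.

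**Figure D1:**
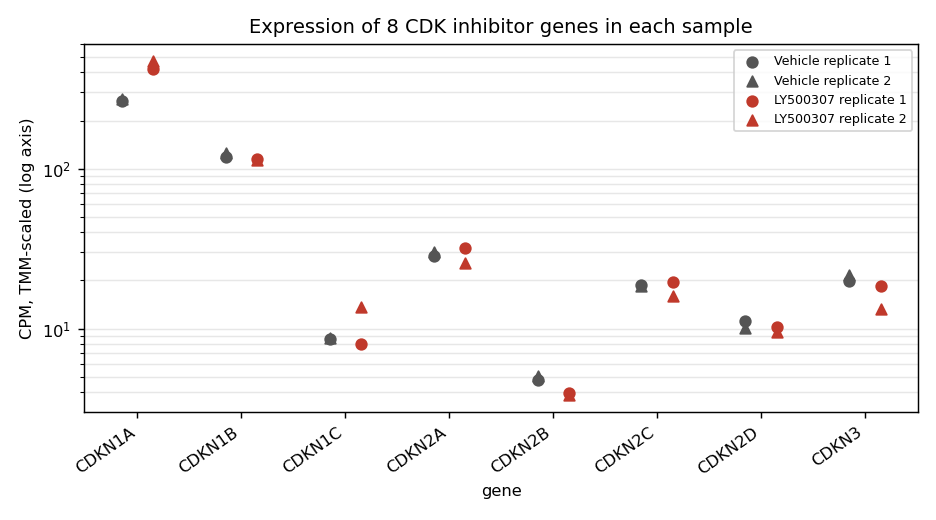
Level of each CDK inhibitor gene in each sample, in CPM on a log axis (points are samples, 2 per group). CDKN1A separates the groups, with 265 and 274 CPM under vehicle and 418 and 473 CPM under LY500307, while the LY500307 replicates of CDKN1C and CDKN3 lie far apart.

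CDKN1A (chr6:36644237-36655114, plus strand, GRCh37) was counted 7952 and 7784 times with vehicle, and 14511 and 15285 times with LY500307. On the CPM scale these were 265 and 274 against 418 and 473. The groups did not overlap, and the gap between them exceeded the difference between replicates of either group. The mean level increased from 270 ± 6.05 CPM to 446 ± 38.7 CPM (SD, n = 2 each). The log2 fold change was 0.72 (SE 0.11, 95% interval 0.47 to 0.98), or 1.65-fold. By p, CDKN1A ranked 2 of the 14473 genes in edgeR (unadjusted p = 0.00018), with an adjusted p of 0.422. DESeq2 gave a log2 fold change of 0.73 and an adjusted p of 0.000338. A stretch of 146 exonic bases is shared with DINOL, a noncoding RNA gene on the opposite strand, and whether counting used strand is not stated, so a part of these reads cannot be assigned to either with certainty.

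The other CIP/KIP genes were CDKN1B and CDKN1C. CDKN1B (chr12:12838432-12875303, plus strand) encodes p27, which restrains cyclin E with CDK2. Its levels were 118 and 125 CPM with vehicle and 115 and 113 CPM with LY500307. The LY500307 values lay just under the vehicle values, and the log2 fold change was −0.09 (SE 0.10, 95% interval −0.31 to 0.14). CDKN1C (chr11:2904443-2907005, minus strand) encodes p57, an imprinted inhibitor active in development. Its levels were 8.64 and 8.76 CPM with vehicle and 8.07 and 13.6 CPM with LY500307. A single sample, LY500307 replicate 2, was high, and replicate 1 lay below both vehicle samples. The log2 fold change of 0.32 (SE 0.25, 95% interval −0.26 to 0.90) did not meet the criteria. It was 0.65 without LY500307 replicate 1, which met the criteria, and −0.11 without LY500307 replicate 2. After GC correction it was 0.13, and that of CDKN1B was −0.002.

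None of the 4 INK4 genes met the criteria, and all 4 had a log2 fold change below 0. CDKN2A (chr9:21967751-21995300, minus strand) encodes p16 and, from another first exon, ARF, which protects p53, and counts per gene do not separate the 2 products. Its levels were 28.3 and 30.2 CPM with vehicle and 31.9 and 25.8 CPM with LY500307. The LY500307 samples lay on either side of the vehicle samples, and the log2 fold change was −0.02 (SE 0.14, 95% interval −0.35 to 0.32). With library totals alone it was 0.02, without vehicle replicate 2 it was 0.03, and without LY500307 replicate 2 it was 0.13. Its exons share 593 bases with CDKN2B-AS1 on the opposite strand, which had between 17 and 30 reads per sample.

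CDKN2B (chr9:22002902-22009304, minus strand) encodes p15, an inhibitor known to respond to TGF-β. Its levels were 4.77 and 5.03 CPM with vehicle and 3.98 and 3.84 CPM with LY500307. Both LY500307 samples were lower, and the log2 fold change was −0.33 (SE 0.21, 95% interval −0.82 to 0.16) on 124 to 143 reads per sample. CDKN2C (chr1:51426417-51440306, plus strand) encodes p18. Its levels were 18.8 and 18.6 CPM with vehicle and 19.7 and 16.0 CPM with LY500307, so the groups overlapped, with a log2 fold change of −0.07 (SE 0.15, 95% interval −0.43 to 0.29) that was 0.08 without LY500307 replicate 2. A stretch of 617 of its exonic bases is shared with a noncoding gene on the opposite strand. CDKN2D (chr19:10677136-10679735, minus strand) encodes p19. Its levels were 11.1 and 10.1 CPM with vehicle and 10.2 and 9.56 CPM with LY500307, again overlapping, with a log2 fold change of −0.10 (SE 0.17, 95% interval −0.48 to 0.28). After GC correction the log2 fold changes of CDKN2A, CDKN2C and CDKN2D were −0.10, −0.15 and −0.21, and none met the criteria.

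CDKN3 (chr14:54863567-54886936, plus strand), the CDK-associated phosphatase, had 19.9 and 21.7 CPM with vehicle and 18.6 and 13.2 CPM with LY500307. Both treated samples were lower, replicate 2 by far more than replicate 1. The log2 fold change was −0.38 (SE 0.18, 95% interval −0.81 to 0.04, unadjusted p = 0.0717 and adjusted p = 0.441 in edgeR). It did not meet the criteria, but did so at −0.65 without LY500307 replicate 1, and was −0.16 without LY500307 replicate 2.

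**Figure D2:**
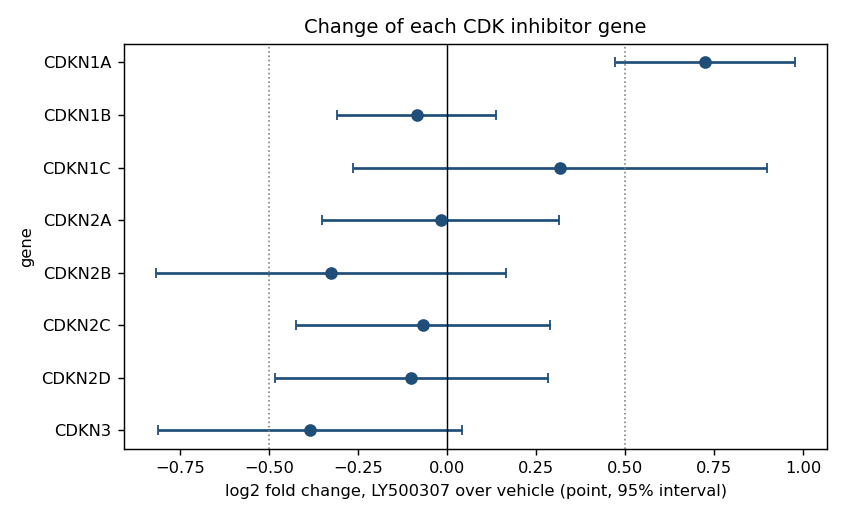
Log2 fold change of each member, LY500307 over vehicle, from edgeR (points) with its 95% interval (bars); dotted lines mark 0.5 in either direction. The interval of CDKN1A, 0.47 to 0.98, lies above 0, and those of the other 7 members include 0.

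The 95% intervals of 6 of the 7 other members ended below 0.47, the lower end of the CDKN1A interval, and CDKN1C was the exception. The comparison was then made within each sample, as the reads of CDKN1A divided by those of another member, which does not depend on how the samples were scaled. Against CDKN1B the ratio was 2.26 and 2.20 with vehicle and 3.63 and 4.18 with LY500307, an increase of 0.81 on the log2 scale (SE 0.10). Against CDKN1C it was 30.6 and 31.2 with vehicle and 51.7 and 34.6 with LY500307, or 0.45 higher (SE 0.29), a difference that leaving out LY500307 replicate 1 brought to 0.16 and leaving out replicate 2 to 0.74. Among the CIP/KIP genes, the ratio to CDKN1B thus separated the groups by more than the spread between replicates, and the ratio to CDKN1C separated them narrowly.

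Against the INK4 genes the gain of CDKN1A was of similar size. The ratio to CDKN2A was 9.37 and 9.08 with vehicle and 13.1 and 18.3 with LY500307 (log2 difference 0.75, SE 0.24). The ratio to CDKN2B was 55.4 and 54.2 with vehicle and 105 and 123 with LY500307 (1.05, SE 0.12), so that CDKN1A gained 2.07-fold on it. For CDKN2C and CDKN2D the log2 differences were 0.80 (SE 0.24) and 0.82 (SE 0.17). The ratio to CDKN3 had the largest difference of the 7, from 13.4 and 12.6 to 22.5 and 35.7 (log2 difference 1.13, SE 0.34), and it also had the widest spread between the treated replicates. All 7 ratios were higher in both LY500307 samples. In a 2-sided exact permutation test each gave p = 0.333, the smallest value that 2 against 2 samples allow, and it stayed at 0.333 after Benjamini-Hochberg adjustment over the 7 comparisons, so this design could not reach the 0.05 threshold. With a sample left out, all 7 differences stayed above 0 and ranged from 0.51 to 0.99 for CDKN2A, from 0.56 to 1.04 for CDKN2C and from 0.79 to 1.46 for CDKN3, each lowest without LY500307 replicate 2 and highest without LY500307 replicate 1.

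**Figure D3:**
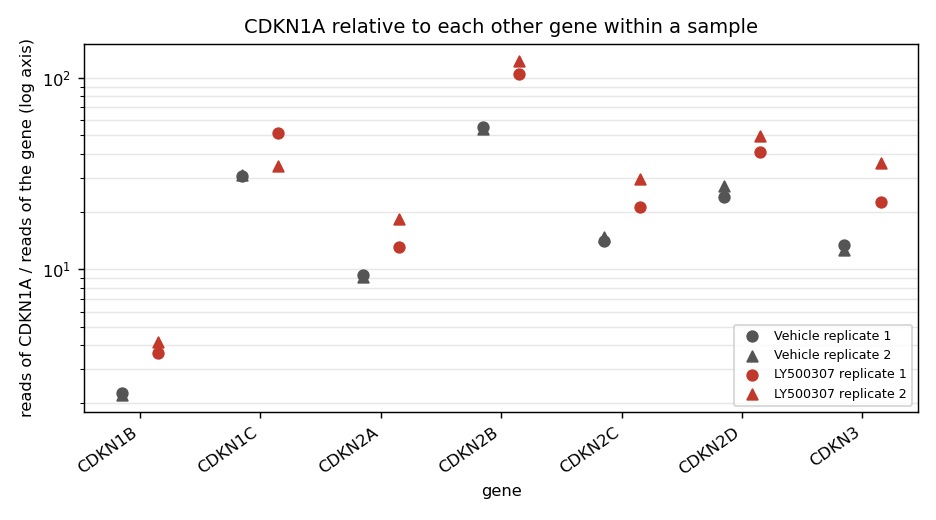
Reads of CDKN1A divided by reads of each other member within a sample, on a log axis (points are samples, 2 per group). All 7 ratios are higher in both LY500307 samples, narrowly so for CDKN1C, where LY500307 replicate 2 is 34.6 against 30.6 and 31.2 with vehicle.

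Levels of different genes were compared as CPM divided by the exonic length in kilobases, which takes out gene length. With vehicle, CDKN1A stood at 90.0 ± 2.02, followed by CDKN1B at 13.1 ± 0.549 and CDKN3 at 11.4 ± 0.718 (SD, n = 2). CDKN2A (7.52 ± 0.338), CDKN2D (7.05 ± 0.508) and CDKN2C (6.20 ± 0.0563) came next, and the values of CDKN2A and CDKN2D overlapped. CDKN1C (3.51 ± 0.0341) and CDKN2B (1.23 ± 0.0460) were lowest. With LY500307, CDKN1A stood at 149 ± 12.9 and CDKN1B at 12.3 ± 0.141, and the order of means was the same. Neighbours among CDKN3 (8.70 ± 2.07), CDKN2A (7.43 ± 1.11), CDKN2D (6.57 ± 0.314) and CDKN2C (5.91 ± 0.877) did not differ beyond their spread, nor did CDKN2C and CDKN1C (4.38 ± 1.59).

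CDKN1A thus gave most of the inhibitor transcripts before treatment and a larger share after it. Of the summed level of the 7 CIP/KIP and INK4 genes per length, it made up 69.8% and 70.2% with vehicle and 78.5% and 81.0% with LY500307. The CIP/KIP sum was 4.74 and 4.96 times the INK4 sum with vehicle and 6.89 and 9.12 times with LY500307. Relative to CDK2, a kinase that p21 inhibits, the level of CDKN1A was 3.59 and 3.91 times as high with vehicle and 6.40 and 6.69 times with LY500307. The choice of length matters for the order. With the longest transcript in place of all annotated exons, CDKN2A went from a vehicle level of 7.52 to 27.8, beside CDKN1B at 27.9, and CDKN3 from 11.4 to 19.4, while CDKN1A stayed highest at 119 and its share was 61.3% and 61.2% with vehicle and 70.8% and 74.6% with LY500307.

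**Figure D4:**
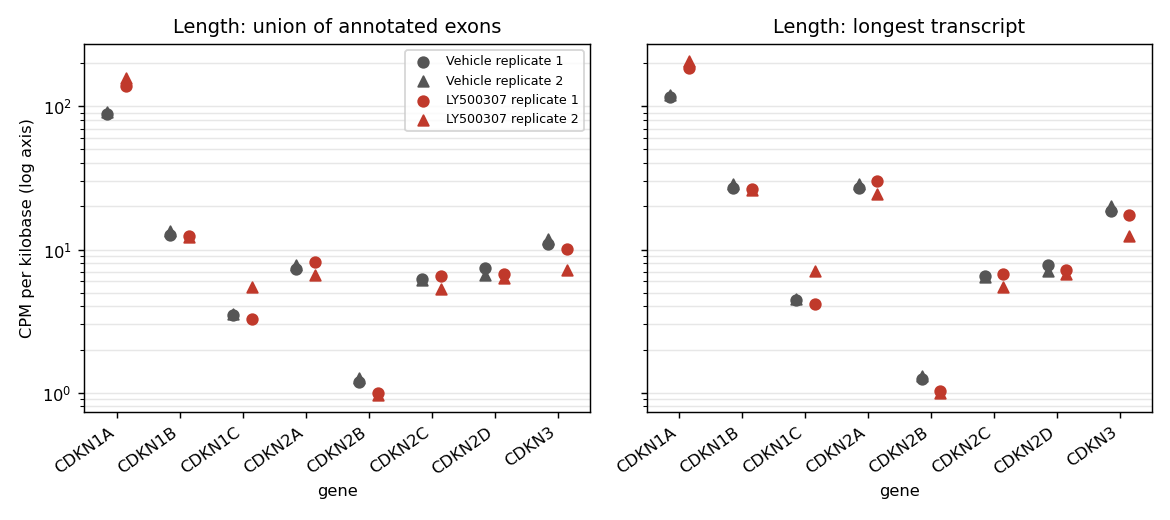
Level of each member per length in each sample (CPM per kilobase, log axis), with the union of annotated exons on the left and the longest transcript on the right. CDKN1A is highest in all samples with both lengths, while CDKN2A moves from a vehicle mean of 7.52 to 27.8 between the panels.

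Lists of genes around the inhibitors, beginning with their partners, were then read. Counts in these and later lists stand beside the 4.62% of all genes tested that met the criteria, 2.76% as higher and 1.86% as lower. In short lists, a count of 0 or 1 cannot be told from that share. Of 13 cyclins and CDKs that they bind, CCNA1, a cyclin A known from meiosis, met the criteria as higher and none as lower, with a median log2 fold change of 0.05. CCNA1 had 6.94 and 8.44 CPM with vehicle and 10.9 and 16.0 CPM with LY500307 (log2 fold change 0.81, SE 0.22). The count was 3 without LY500307 replicate 1. CCND2, the D-type cyclin with the most reads, gave 0.04 (SE 0.10), CCND1 0.06 (SE 0.10) and CDK2 −0.08 (SE 0.10). CDK4, the main kinase bound by INK4 proteins, had 225 and 219 CPM with vehicle and 233 and 384 CPM with LY500307, so that replicate 2 set its value of 0.48 (SE 0.21), which did not meet the criteria. CDK6 had at most 22 reads in any sample. Of 13 RB and E2F family genes, 0 met the criteria (median −0.03), with RB1 at −0.03 (SE 0.10) and E2F4 at 0.05 (SE 0.09).

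CIP/KIP proteins are also set by degradation. Of 11 genes for their turnover, RBX1, the RING subunit of cullin ligases, met the criteria as higher (log2 fold change 0.73, SE 0.23, median of the list −0.04). It had 27.7 and 36.9 CPM with vehicle and 41.3 and 65.8 CPM with LY500307, and it did not meet them without vehicle replicate 1 (0.54, SE 0.26) or without LY500307 replicate 2 (0.36, SE 0.11). SKP2, which marks p27 for degradation, gave −0.04 (SE 0.10), and DTL, which does so for p21, gave −0.14 (SE 0.10).

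Of 27 factors reported to act on CDKN1A, 24 were tested and 0 met the criteria, with a median of 0.00, while 1 did without LY500307 replicate 1. SP1, a factor that binds GC boxes, was at 373 and 385 CPM with vehicle and 352 and 286 CPM with LY500307 (log2 fold change −0.25, SE 0.13). ESR2, which encodes ERβ, the receptor LY500307 is made to activate, had 7 and 8 reads with vehicle and 12 and 7 with LY500307 and was too low to be tested. ESR1, the gene for ERα, had 0 reads in every sample.

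Beside CDKN1A, the p53 target genes were compared because p21 belongs to that response. This list was written with earlier results of these data known and is no independent evidence of a direction. Over all genes tested, 2.76% met the criteria as higher, and 50.0% had a log2 fold change above 0. Of the 26 list genes tested, 6 met the criteria as higher and 0 as lower, and 24 had a log2 fold change above 0. The median of the list was 0.25, against −5.64e-05 over all genes. The list median lay between 0.22 and 0.30 in the alternative fits and samples left out. Those that met the criteria were SESN2 (0.66, SE 0.14), FDXR (0.62, SE 0.14), FAS (0.60, SE 0.15), RPS27L (0.60, SE 0.13), BBC3 (0.55, SE 0.12) and TP53I3 (0.55, SE 0.11). SESN2 is a stress sensor, FDXR a mitochondrial reductase, FAS a death receptor and BBC3 the pro-apoptotic protein PUMA. The number that met them was 10 without LY500307 replicate 1 and 1, FDXR, without LY500307 replicate 2. FDXR itself did not meet them without vehicle replicate 2 (0.45, SE 0.22). After GC correction 4 met them, and BBC3 (0.40, SE 0.10) and TP53I3 (0.47, SE 0.10) did not. MDM2, the ligase that p53 induces against itself, had 332 and 328 CPM with vehicle and 370 and 341 CPM with LY500307 (0.11, SE 0.10), and PMAIP1, another pro-apoptotic target, gave −0.43 (SE 0.18).

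Genes of DNA replication and mitosis that are known to be shut off when p21 is active had a median of −0.18. This list, too, was written with earlier results of these data known and is no independent evidence of a direction. Of 34 tested, NUF2, a kinetochore gene, met the criteria as lower and 0 as higher, and 27 had a log2 fold change below 0. Over all genes tested, 1.86% met the criteria as lower, and 50.0% had a log2 fold change above 0. NUF2 had 52.98 and 45.4 CPM with vehicle and 37.1 and 32.0 CPM with LY500307 (−0.51, SE 0.13). It no longer met them without vehicle replicate 1 (−0.39, SE 0.23), without LY500307 replicate 2 (−0.41, SE 0.11), with library totals alone (−0.47, SE 0.13) or after GC correction (−0.36, SE 0.12). The count was 5 without LY500307 replicate 1. The most abundant members, TOP2A, MKI67 and CENPF, gave −0.29 (SE 0.11), −0.42 (SE 0.18) and −0.48 (SE 0.14), and CDK1 gave −0.01 (SE 0.12). MKI67 had 597 and 636 CPM with vehicle and 550 and 372 CPM with LY500307. CENPF had 607 and 571 CPM with vehicle and 477 and 367 CPM with LY500307. LY500307 replicate 2 was thus well below replicate 1 for both genes, whereas TOP2A had 510 and 515 CPM with LY500307.

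**Figure D5:**
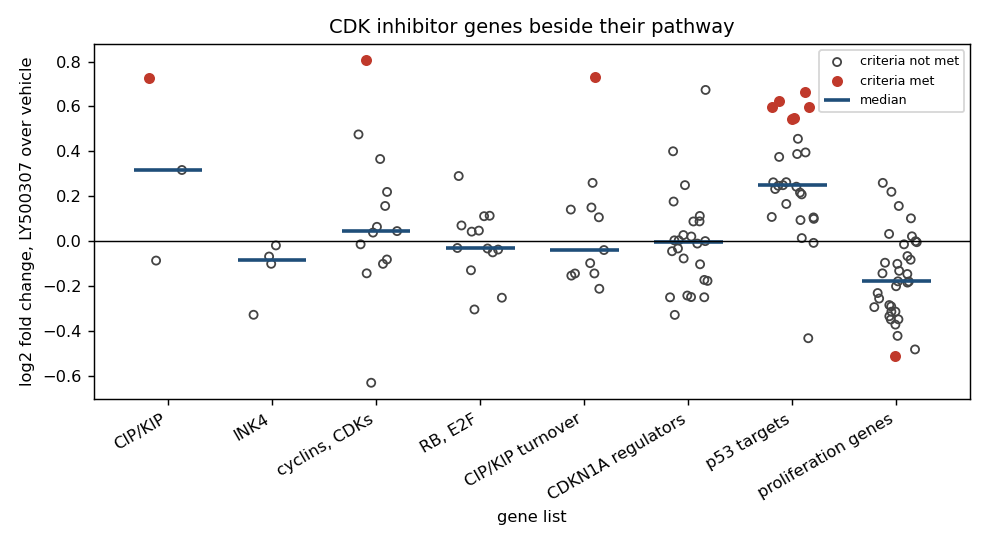
Log2 fold change, LY500307 over vehicle, of each tested gene in the CDK inhibitor families and the lists around them (open points, criteria not met; red points, criteria met; blue bars, list medians). The p53 targets have a median of 0.25 and the proliferation genes one of −0.18, while the RB and E2F genes lie around −0.03.

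Around CDKN1A on chromosome 6, the nearest 3 tested genes on each side were compared. None of the 6 met the criteria. KCTD20, STK38 and SRSF3 gave 0.16, −0.20 and −0.09 (SE 0.11, 0.12 and 0.10), and PPIL1, C6orf89 and MTCH1 gave 0.12, 0.12 and 0.19 (SE 0.11 each). Around CDKN2A and CDKN2B on chromosome 9, 0 of 5 tested neighbours met the criteria, and MTAP had between 2191 and 2846 reads per sample.

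The genes whose pattern over the 4 samples was most like that of CDKN1A were LOC285547, ESPNL, PTGER2, C6orf154 and FAM43B, by the distance between log2 CPM values centred on their mean. These distances were 0.0143, 0.0643, 0.0694, 0.0762 and 0.0885. ESPNL had 254, 261, 461 and 491 reads, against only 7, 7, 15 and 16 for LOC285547. Ranked in the same way among 14472 genes, the nearest other member was CDKN1C at 3443 and the farthest was CDKN3 at 13149, so none of the other members was among the genes most like CDKN1A over these 4 samples.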

How the data were processed

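RNA from 4 samples (2 vehicle, 2 LY500307) was sequenced as 50 bp single ends per the labels. The authors deposited raw counts per gene symbol, made, per their processing notes, with TopHat2 2.0.8b on hg19 and HTSeq. The annotation and strand setting are not given in the sources used here. The labels name a total RNA kit and the study's methods a stranded mRNA kit. The 5 tally lines of each file, 50.0% to 54.4% of all tallied reads, were left out, and 0 columns of per-sample values were unused.

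Counts were tested over all genes in R 4.3.3 with edgeR 4.0.16 (TMM, filterByExpr, quasi-likelihood test, Benjamini-Hochberg adjustment). SE is the absolute log2 fold change divided by the square root of F. Criteria were a log2 fold change beyond 0.5 in either direction with a p under 0.05 before adjustment. DESeq2 1.42.0 was an alternative, as were its size factors within edgeR, scaling by library totals only, other filters, a replicate block, GC correction (loess, span 0.3) and each sample left out. Read ratios used a pseudocount of 0.5 and exact permutation tests (scipy 1.17.1), and likeness one of 0.1 CPM. Positions, GC content and lengths came from GENCODE v44lift37 (GRCh37), matched for 91.57% of 23228 symbols, 2134 of them through an older symbol, and promoters from RefSeq GRCh38.p14. The procedure was tested on simulated data.

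The genes named are all members, list genes that met the criteria with up to 3 abundant ones per list, the 5 genes most like CDKN1A and its 3 neighbours per side. A few list genes are not reported here. Other genes were named after their values were seen. The members and lists were chosen with earlier results of these data known.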

Additional observations from a re-analysis of the deposited data

How the results depend on the processing

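CDKN1A stayed higher and met the criteria in all 8 other fits (log2 fold change 0.64 to 0.77) and with each sample left out (0.64 to 0.81). With 2 samples per group, a sample left out leaves a lone sample that is assumed to vary like the other group, so these counts of calls are not comparable with the full ones. CDKN1C then ranged from −0.11 to 0.65, CDKN2A from −0.18 to 0.13 and CDKN2C from −0.23 to 0.078, each changing sign, and CDKN3 from −0.65 to −0.16. GC correction moved CDKN1C from 0.32 to 0.13, CDKN2D from −0.10 to −0.21, CDKN2C from −0.07 to −0.15, CDKN2A from −0.02 to −0.10 and CDKN1B from −0.09 to −0.002, and p53 target genes that met the criteria from 6 to 4. With library totals alone, CDKN2A was at 0.018. The number of CDK inhibitor genes that met the criteria was 1 to 3 with a sample left out and 0 by an adjusted p below 0.05. Over all genes the 669 that met the criteria became 352 to 1987 with a sample left out, 1678 by the unadjusted p alone and 0 by the adjusted p. The 0 genes with an adjusted p below 0.05 became 16 with DESeq2, 0 to 5002 with a sample left out, 1 with the replicate block, and 3 once GC correction was added to it. After GC correction the log2 change of the ratio of CDKN1A to CDKN1B was 0.64 and that to CDKN2B 0.93. The causes were not tested.

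Replicate numbers are shared by the groups, but same-numbered samples did not deviate together (correlation −0.07). With 2 samples per group this cannot settle whether they shared a culture or batch, and no source used here says so. With the replicate block, 717 genes met the criteria, and CDKN1A gave 0.72 (SE 0.16, adjusted p = 0.145 in edgeR). CDKN2B had the fewest reads of the members, 124 to 143 per sample.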

Other observations

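Genes linked to senescence, a lasting arrest in which p21 and p16 are known to take part, were also read. GLB1, the source of senescence-associated galactosidase activity, had a log2 fold change of 0.24 (SE 0.09), and LMNB1, a lamin known to be lost in senescent cells, one of −0.21 (SE 0.13). Neither met the criteria. IL6 and IGFBP7 had 0 reads in every sample.

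No enzyme listed as acting on CDKs met the criteria. Of 3 genes of the CDK-activating kinase, 0 met the criteria (median −0.15), and of 5 genes for the kinases and phosphatases that set CDK phosphorylation, 0 did so (median −0.00), among them WEE1 at 0.04 (SE 0.14) and CDC25A at −0.01 (SE 0.11). Of 4 genes with CDKN or CDK2AP in their names that belong to neither family, 0 met the criteria. Of the aldehyde dehydrogenase genes, ALDH1A1 had between 134 and 185 reads per sample and ALDH1A2 between 315 and 347, and 0 of 3 tested met the criteria.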
